A study of Mus musculus with 6 samples.

Results

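The immunity-related GTPases (IRG family) are proteins that mouse cells make in response to interferons, and 8 of the 18268 genes in the expression table were followed here: Irgm1, Irgm2, Igtp, Iigp1, Tgtp1, Tgtp2, Ifi47 and Gm12250. All 8 were found by symbol. They had been chosen on their measured difference between the drug groups of these same mice, so their values in that comparison are given as a description with no test. RNA was sequenced from colorectal tissue of C57BL/6 mice in which colitis was induced with dextran sulfate sodium (DSS), a polymer in the drinking water that injures the gut lining. The mice were adult males in the methods of the study. DSS was given for 7 days and the drug was given by gavage for 6 days in both groups of 3 mice. Colitis mice receiving BBR were given berberine, a plant alkaloid. Colitis mice receiving SASP were given sulfasalazine, an aminosalicylate drug. No group without a drug was analysed here, so values tell how the drugs compare, each at its own dose, and say nothing of either drug against no drug. The sequencing methods speak of rectal samples for BBR and the account of the SASP experiment speaks of colon samples, so gut segment, drug and dose cannot be told apart in these data.

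Interferon gamma, a cytokine of T cells and natural killer cells, acts through its receptor and the kinases Jak1 and Jak2 and induces the transcription factor Irf1, which acts at promoters of IRG genes. The encoded GTPases defend cells against intracellular bacteria and parasites. Irgm1, Irgm2 and Igtp (also named Irgm3) are regulators that sit on the cell's own membranes and keep the other family members inactive there. Iigp1 (Irga6), Tgtp1 and Tgtp2 (Irgb6), Ifi47 (Irgd) and Gm12250 (Irgb10) are effectors, several of which load onto the vacuole around a pathogen and help to break it. In gut epithelium and macrophages the family is switched on during infection and inflammation.

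Promoter sequence is shown first because the family is known for its interferon control. RefSeq promoter windows of 300 bases (250 before and 50 after the annotated transcription start, build GRCm38.p6) were found for 7 of the 8 genes, all but Iigp1. Both strands were searched for GAAA followed after any 2 bases by a further GAAA, called the GAAA repeat here and the core of elements bound by interferon regulatory factors, and for TTCNNNGAA, the core of gamma-activated sequences, which reads the same on both strands. The motifs, and the largest gap of 12 bases between them, were set after these windows had been seen. The GAAA repeat was present in 6 of the 7 windows, against 3.44% of all 32851 windows. TTCNNNGAA was present in 5 of the 7, against 8.3% of all windows. In those 5 genes the motifs lay at most 12 bases apart, an arrangement held by 22 of all windows (0.067%), while 149 windows (0.454%) held both motifs anywhere. In Igtp, Irgm2, Tgtp1 and Tgtp2 TTCNNNGAA stood before the GAAA repeat, read on the strand of the repeat, with 2 bases between them. Only 5 of all windows had that order and spacing, and the fifth belonged to Gm12185, another IRG gene. The reverse order at that spacing was not counted.

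The stretches that hold these motifs are printed 5′ to 3′ on the strand of each gene, upstream of the start, with GAAA repeats and TTCNNNGAA matches in capitals. Igtp is shown at chr11:58199487-58199546 (plus strand), Irgm2 at chr11:58214878-58214937 (plus), Tgtp1 at chr11:48992299-48992358 (minus), Tgtp2 at chr11:49064258-49064317 (minus), Gm12250 at chr11:58183717-58183821 (plus) and Irgm1 at chr11:48871421-48871485 (minus).
Igtp: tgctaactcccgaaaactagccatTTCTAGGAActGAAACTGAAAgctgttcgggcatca
Irgm2: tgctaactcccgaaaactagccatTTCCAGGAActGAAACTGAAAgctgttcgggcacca
Tgtp1: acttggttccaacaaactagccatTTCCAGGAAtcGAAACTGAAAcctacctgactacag
Tgtp2: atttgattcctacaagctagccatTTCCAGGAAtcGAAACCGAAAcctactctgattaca
Gm12250: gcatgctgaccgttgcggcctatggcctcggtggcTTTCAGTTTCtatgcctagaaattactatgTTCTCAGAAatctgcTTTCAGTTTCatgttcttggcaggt
Irgm1: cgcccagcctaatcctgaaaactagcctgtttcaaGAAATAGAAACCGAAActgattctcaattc
In the first 4 stretches TTCNNNGAA comes before the GAAA repeat at the same spacing. The 250 upstream bases were aligned end to end with gaps allowed. Igtp and Irgm2 were 78.8% identical and Tgtp1 and Tgtp2 were 70.4% identical, while the other pairs of genes ranged from 54.8% to 64.0%. The identity that unrelated windows reach in such an alignment was not measured, so the lower values are no sign of likeness. Gm12250 had a GAAA repeat on the opposite strand on each side of TTCNNNGAA. Irgm1 had 2 overlapping GAAA repeats and no TTCNNNGAA. The Ifi47 window held neither motif, and other possible starts of that gene were not searched. A match describes letters in the window and is not evidence that a factor was bound in these mice.

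**Figure D1:**
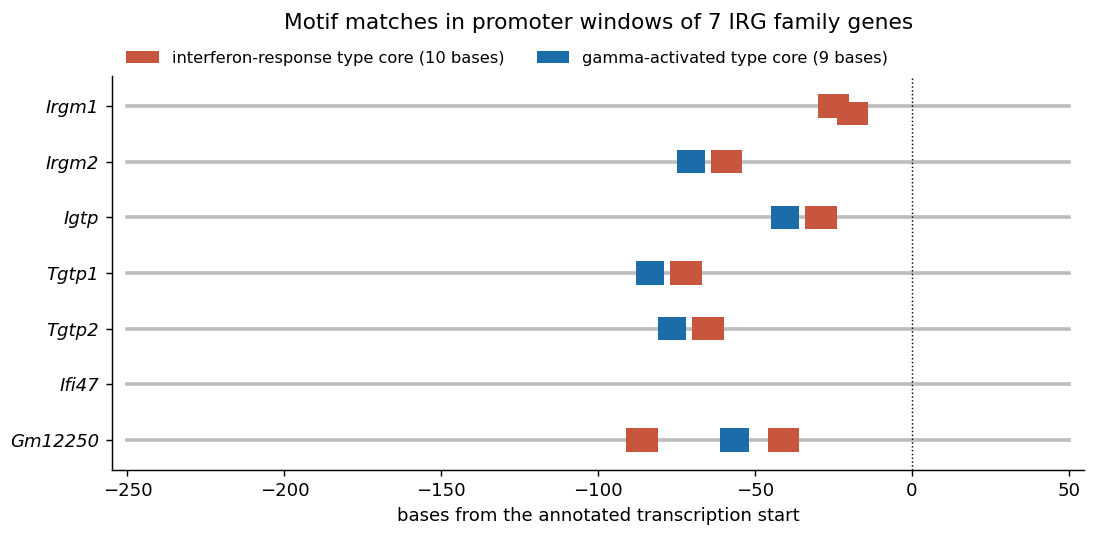
Places of the motif matches in the promoter windows of 7 IRG family genes, in bases from the annotated transcription start (dotted line). Red blocks are GAAA repeats and blue blocks TTCNNNGAA matches, and grey lines are the searched windows. Igtp, Irgm2, Tgtp1 and Tgtp2 show the same pair 2 bases apart, between -88 and -25, and Ifi47 shows none.

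Levels are given in FPKM, fragments scaled to transcript length and to the reads mapped, which the authors calculated with RSEM and which can be set side by side between genes. The summed FPKM of a library ranged from 461163 to 487054, and 11518 to 12307 genes reached 1 FPKM. Depth estimated from the smallest values was 16700000 to 18200000 reads a mouse and is approximate. BBR mouse 3 stood apart: across genes its log2 values correlated at 0.953 and 0.949 with those of BBR mice 1 and 2, which correlated at 0.987 with each other, and the summed FPKM of 10 smooth muscle markers was 7414 in it and 3183 and 3402 in the other BBR mice. Nothing in the labels says that samples came from separate cages or preparation days, and replicate numbers only name a mouse.

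The regulators had the highest mean IRG levels in both groups, although the effector Iigp1 exceeded Irgm2 in SASP mouse 1. Irgm1 (NCBI Gene ID 15944), which also takes part in autophagy, was at 18.6, 20.8 and 12.7 FPKM in BBR mice 1, 2 and 3 and at 291.8, 212.5 and 333.4 FPKM in SASP mice 1, 2 and 3. Its group means were 17.4 ± 4.19 under BBR and 279 ± 61.4 under SASP (SD, n = 3), a ratio of 16.1. Irgm2 (54396), a regulator found at the Golgi, was at 10.99, 10.21 and 13.11 FPKM under BBR and at 202.0, 176.9 and 253.7 FPKM under SASP. These are means of 11.4 ± 1.5 and 211 ± 39.2, a ratio of 18.4, and the 2 genes had the smallest ratios of the family. Igtp (16145), the regulator of the endoplasmic reticulum, was at 5.79, 4.83 and 5.97 FPKM under BBR and at 351.5, 237.1 and 411.7 FPKM under SASP. With means of 5.53 ± 0.613 and 333 ± 88.7 and a ratio of 60.3, Igtp was below both other regulators under BBR and above them under SASP.

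Among the effectors, Iigp1 (60440), the best studied of those that coat pathogen vacuoles, was at 1.41, 1.26 and 2.32 FPKM in the BBR mice and at 264.7, 98.6 and 217.0 FPKM in the SASP mice. Its means were 1.66 ± 0.574 and 193 ± 85.5, a ratio of 116. Ifi47 (15953), a GTPase that interferon gamma induces in many cell types, was at 1.58, 2.45 and 2.64 FPKM under BBR and at 171.2, 67.5 and 170.2 FPKM under SASP. Its ratio of means, 136 ± 59.6 to 2.22 ± 0.565, was 61.3, close to that of Igtp. Gm12250 (631323), an effector known from the release of bacterial ligands into the cytosol, was at 0.54, 0.38 and 0.86 FPKM under BBR and at 76.8, 45.3 and 80.1 FPKM under SASP. It stayed under 1 FPKM in every BBR mouse, the only one of the 8 to do so, and its means of 0.593 ± 0.244 and 67.4 ± 19.2 had a ratio of 114.

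Tgtp1 and Tgtp2 are neighbouring copies whose products both load onto vacuoles. Tgtp1 (21822) was at 0.15, 0.15 and 1.14 FPKM under BBR and at 142.2, 44.3 and 102.0 FPKM under SASP. Tgtp2 (100039796) was at 1.21, 1.04 and 0.48 FPKM under BBR and at 45.7, 25.4 and 44.9 FPKM under SASP. Of the stretches of 50 bases in the GENCODE transcript of Tgtp1, 91.4% also occur in another gene, and for Tgtp2 the share was 90.6%, so the division of reads between the pair is uncertain. The share of Tgtp2 in the pair was 89.0% and 87.4% in BBR mice 1 and 2 but 29.6% in BBR mouse 3, and 24.3% to 36.5% in the SASP mice. The sum of the pair avoids that division and was 1.36, 1.19 and 1.62 FPKM under BBR and 187.9, 69.7 and 147.0 FPKM under SASP. Groups did not overlap in the sum, whose ratio of means was 97.0, between those of Tgtp1 (200.4) and Tgtp2 (42.5). Shared stretches were fewer for the other members whose transcripts were compared, at 12.3% for Igtp and 7.30% for Irgm2, largely with each other, and at most 3.71% for Irgm1, Iigp1 and Ifi47.

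**Figure D2:**
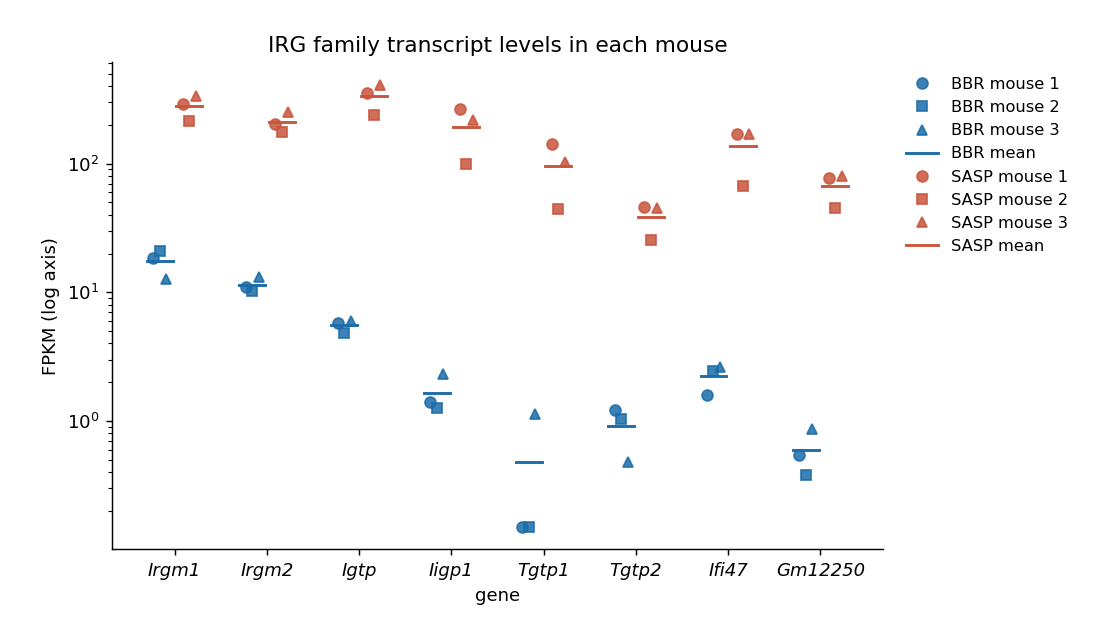
FPKM of each IRG family gene in each mouse on a log axis, with BBR in blue, SASP in red, a marker shape for each mouse and a line at each group mean. No BBR mouse reaches the level of any SASP mouse in any of the 8 genes, and the square of SASP mouse 2 is the lowest red marker each time.

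Groups did not overlap for any of the 8 genes. The lowest SASP value exceeded the highest BBR value 10.2 times for Irgm1, the smallest such gap, and 52.7 times for Gm12250, the largest. The levels of Gm12250 under BBR stand for only about 8.2 to 18.3 reads, so its ratios are imprecise. That estimate uses the length of its pseudogene model. On the log2(FPKM + 1) scale the difference, BBR minus SASP, was -3.93 for Irgm1 (SE 0.23), -4.08 for Irgm2 (SE 0.16) and -4.35 for Tgtp2 (SE 0.26). It was -5.31 for Ifi47 (SE 0.36), -5.39 for Gm12250 (SE 0.24) and -5.65 for Igtp (SE 0.21). Tgtp1 at -5.95 (SE 0.45) and Iigp1 at -6.09 (SE 0.36) were farthest apart, and the scale understates the change of effectors that were near 0 under BBR. The median over the 8 was -5.35, beside 0.10 over all 12072 tested genes. By the limma fit over all genes, 8 of the 8 had an adjusted p under 0.05 and were lower under BBR, where 5.04% of tested genes were called lower and 3.82% called higher. Non-overlapping groups with BBR lower were found in 16.6% of tested genes. Since these values chose the genes, nothing is read from those counts. The 608 genes called lower became 1369 without BBR mouse 3, and 109, 304, 101, 336 and 82 without BBR mouse 1, BBR mouse 2, SASP mouse 1, SASP mouse 2 and SASP mouse 3. A difference of at least the size of that of Irgm1 was seen in 18 tested genes with lower levels under BBR, 8 of them the genes described here. Without BBR mouse 3 the median was -5.46.

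**Figure D3:**
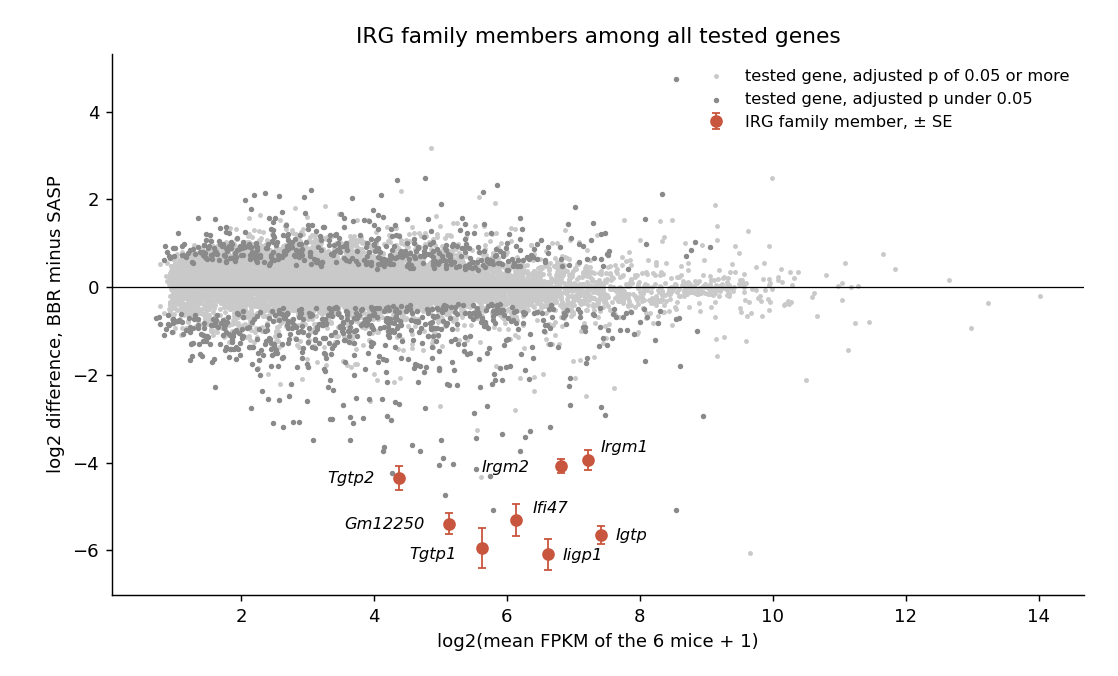
Log2 difference, BBR minus SASP, against log2(mean FPKM + 1) for each of the 12072 tested genes, with genes called at an adjusted p under 0.05 in dark grey and the 8 IRG family genes in red with bars of ± SE. The red points lie between -3.93 and -6.09, at the lower edge of the cloud, over a range of mean levels.

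Summed over the 8 genes, the level was 40.3, 41.1 and 39.2 FPKM in the BBR mice and 1546, 908 and 1613 FPKM in the SASP mice. The sum differed little among BBR mice although BBR mouse 3 stood apart in other genes. As a share of all FPKM in a library it was 0.00831% to 0.00891% under BBR and 0.192% to 0.338% under SASP. The make-up of the sum differed as well. The 3 regulators summed to 35.4, 35.8 and 31.8 FPKM under BBR, and the 5 effectors to 4.89, 5.28 and 7.44 FPKM. Under SASP the regulators summed to 845, 626 and 999 FPKM and the effectors to 701, 281 and 614 FPKM. The ratio of regulators to effectors was therefore 7.24, 6.78 and 4.27 in the BBR mice and 1.21, 2.23 and 1.63 in the SASP mice, with no overlap. Regulators thus made up most of the summed IRG level under BBR, mainly through Irgm1 and Irgm2, and the sums were closer to equal under SASP.

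The order of mean levels under BBR was Irgm1, Irgm2, Igtp, Ifi47, Iigp1, Tgtp2, Gm12250 and Tgtp1. Neighbours in that order were separated in all 3 mice with no overlap of their ranges only between Irgm2 and Igtp, between Igtp and Ifi47 and between Iigp1 and Tgtp2. Under SASP the order was Igtp, Irgm1, Irgm2, Iigp1, Ifi47, Tgtp1, Gm12250 and Tgtp2, and every pair of neighbours overlapped over the 3 mice. The highest mean was 36.2 times the lowest under BBR and 8.62 times under SASP. Ranked among all genes of a mouse, Igtp stood at 167 to 312 from the top under SASP and at 7473 to 8825 under BBR. Tgtp2 was the lowest ranked of the 8 under SASP, at 1747 to 3007.

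The genes were chosen on the difference between groups, and levels among the SASP mice are not independent of it. Across genes the log2 values of SASP mouse 2 correlated at 0.941 to 0.953 with those of the BBR mice. The range was 0.933 to 0.944 for SASP mouse 3 and 0.916 to 0.932 for SASP mouse 1. SASP mouse 2 had the lowest level of the 3 SASP mice for 8 of the 8 genes, where 25.3% of tested genes had it lowest, a mouse singled out after the values had been seen. That share covers genes with differences of every size and direction, so it is no like background for genes chosen as higher under SASP. Relative to the mean of SASP mice 1 and 3, its level was 0.776 for Irgm2, 0.680 for Irgm1 and 0.621 for Igtp. For the effectors the ratio was 0.578 for Gm12250, 0.562 for Tgtp2, 0.409 for Iigp1, 0.395 for Ifi47 and 0.363 for Tgtp1. Every effector thus had a smaller ratio than every regulator, and the median over the 8 was 0.570 against 1.05 over all tested genes. As sums, the effectors also differed more between the drug groups, with a ratio of mean sums, SASP to BBR, of 90.6 against 24.0 for the regulators. Single genes did not split this way: the ratio of means was 60.3 for the regulator Igtp, and 61.3 and 42.5 for the effectors Ifi47 and Tgtp2. The order of the ratios in SASP mouse 2 is not a result separate from the difference between the drug groups. The same mouse was lowest for 9 of 9 guanylate-binding proteins, 17 of 17 other interferon-induced genes with no close paralog and 18 of 18 antiviral genes. It was also lowest for 8 of 8 leukocyte markers, with a median ratio of 0.556, and for 3 of 4 tested B and plasma cell markers (0.42). For T and natural killer cell markers it was lowest in the 3 that were tested (0.497). Among those too low to be tested it was not lowest for Cd3e, Cd4, Ncr1, Klrb1c and Prf1. The median ratio was 1.77 over 10 smooth muscle markers and 1.10 over 9 macrophage markers. The part of cell make-up in the level of that mouse was not tested. In bulk tissue, fewer cells of a type and less RNA per cell cannot be told apart.

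**Figure D4:**
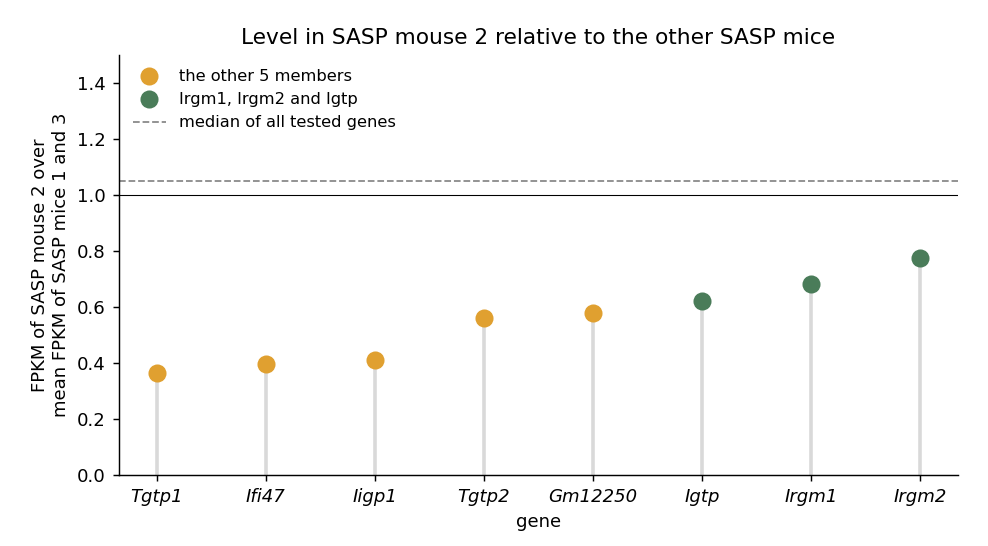
FPKM of SASP mouse 2 divided by the mean FPKM of SASP mice 1 and 3 for each of the 8 IRG family genes, with regulators in green, effectors in yellow and the median of all tested genes as a dashed line. Effectors lie at 0.363 to 0.578 and regulators at 0.621 to 0.776, all below the dashed line at 1.05.

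Among the BBR mice no mouse was lowest throughout. BBR mouse 3 was the highest of its group for 6 of the 8 genes and the lowest for Irgm1 and Tgtp2. Its level relative to the mean of BBR mice 1 and 2 was 0.644 for Irgm1 and 1.74 for Iigp1, and 7.6 for Tgtp1, whose value of 0.15 FPKM in the other mice stands for only about 7.1 to 7.2 reads.

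Other genes of the IRG family were followed to see how far the pattern extended. Of 7 tested genes, 5 passed the test as lower under BBR and 0 as higher, with a median log2 difference of -2.75. Gm5431 was at 2.42, 1.24 and 4.8 FPKM under BBR and 48.9, 30.6 and 48.5 FPKM under SASP, a log2 difference of -3.59 (SE 0.36, adjusted p = 0.0053). Gm4951, a close relative of Iigp1, had a log2 difference of -3.49 (adjusted p = 0.0083), 9930111J21Rik2 one of -3.08 (adjusted p = 0.0027) and Gm12185 one of -2.75 (adjusted p = 0.00069). F830016B08Rik was lower by a log2 difference of -2.69 at an adjusted p of 0.0472. That call depended on the settings, with an adjusted p of 0.0502 when genes had to average 5 FPKM, 0.0509 with no mean-variance trend and 0.0808 with no filter on low values, and of 0.105 to 0.146 without BBR mouse 1, BBR mouse 2, SASP mouse 1 or SASP mouse 3 in turn. The neighbour in name of 9930111J21Rik2, 9930111J21Rik1, reached -1.02 with an adjusted p of 0.0527. It passed with median-ratio scaling (adjusted p = 0.0445) and with a pseudocount of 0.1 (-2.16, adjusted p = 0.0375). It also passed with array quality weights (adjusted p = 0.0037) and without BBR mouse 3 (adjusted p = 0.0491). Irgq, a distant relative outside the interferon-induced branch, was at 7.59, 8.86 and 4.61 FPKM under BBR and 4.97, 6.08 and 4.73 FPKM under SASP, with overlapping groups, a log2 difference of 0.32 and an adjusted p of 0.348. Without BBR mouse 3 it passed as higher (log2 difference 0.56, adjusted p = 0.0251), as it did with array quality weights (adjusted p = 0.0022), and without BBR mouse 2 the difference was 0.16. Irgc1, known from testis, was at 0.07 FPKM or less in every mouse and was not tested.

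Guanylate-binding proteins are larger interferon-induced GTPases that work beside the IRG family at pathogen vacuoles. Here 9 of 9 tested genes passed the test as lower under BBR, with a median log2 difference of -3.75. Of all tested genes, 5.04% were called lower. Several of the 9, Gbp4 among them, were under 1 FPKM in every BBR mouse and entered the test only through the SASP mice. The filter thus set the direction of those genes in advance. Gbp2, the most abundant of them, was at 15.1, 18.3 and 21.3 FPKM under BBR and at 876.6, 301.5 and 1002 FPKM under SASP, a log2 difference of -5.08 (SE 0.43, adjusted p = 0.0028). Gbp6 had a difference of -4.73 (adjusted p = 0.0005) and Gbp7 one of -3.49 (adjusted p = 0.0007). Profiles over the 6 mice were compared with the mean profile of the 8 IRG genes, each centred on its own mean, by the root mean square difference on the log2 scale. Gbp6 was nearest of all other tested genes at 0.21, followed by Gbp2 at 0.27 and Gbp4 at 0.49. The next 7 were the death ligand gene Tnfsf10 (0.55), Ifit2 (0.60), Gbp3 (0.62), Gbp5 (0.68), the peptide transporter gene Tap1 (0.69), Apol6 (0.74) and the chemokine gene Cxcl10 (0.75). The 8 genes themselves lay between 0.17 for Gm12250 and 0.65 for Irgm1, so 6 of these 10 genes were nearer than Irgm1, a description that draws on the same contrast that chose the family.

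Genes of interferon gamma signalling, some upstream of the family and some themselves induced by interferons, differed by role. Receptors and kinases of the interferon gamma pathway did not pass the test in the reported fit. Ifngr1 was at 253.8 to 270.8 FPKM under BBR and 252.3 to 297.2 FPKM under SASP (log2 difference -0.07, adjusted p = 0.674). For Ifngr2 the difference was 0.45 (adjusted p = 0.0734), for Jak1 0.16 (adjusted p = 0.314) and for Jak2 0.20 (adjusted p = 0.243). Ifngr2 was at 89.87 to 114.87 FPKM under BBR and 66.74 to 80.84 FPKM under SASP, without overlap, and passed the test as higher without BBR mouse 3 (adjusted p = 0.0148). With array quality weights Ifngr2 (adjusted p = 0.0005) and Jak2 (adjusted p = 0.0039) passed as higher, and 1 gene of the list did with quantile normalization. The transcription factors were lower under BBR. Irf1 was at 135.1, 115.7 and 128.2 FPKM under BBR and at 422.1, 329.0 and 484.2 FPKM under SASP, a log2 difference of -1.68 (SE 0.16, adjusted p = 0.0048). Irf8 (-2.21, adjusted p = 0.0017), Stat2 (-1.83, adjusted p = 0.0019), Irf9 (-1.09, adjusted p = 0.0186) and the feedback inhibitor Socs1 (-2.94, adjusted p = 0.0132) also passed. In all, 5 of 9 tested genes of this list passed as lower and 0 as higher, although Irf9 and Socs1 missed the threshold without BBR mouse 1, SASP mouse 1 or SASP mouse 3, leaving 3. The gene of the cytokine itself, Ifng, was named outside the rule for named genes: it was listed at 0 in all 3 BBR mice and at 1.19, 0.30 and 0.21 FPKM in the SASP mice, too low to be tested. Of 5 tested receptor genes for type I and III interferons, 0 passed in either direction in limma, and 1 was higher at an unadjusted p under 0.05. Without BBR mouse 3, 4 of these 5 passed as higher, among them Ifnar1 (log2 difference 0.42) and Ifnlr1 (0.46).

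Other genes that interferon gamma induces and that have no close paralog were counted next. The choice rests on general knowledge, and their shared stretches were not measured. Of 17 tested, 15 passed as lower under BBR and 0 as higher, with a median log2 difference of -2.75. Tap1, which moves peptides into the endoplasmic reticulum for antigen display, was at 9.30, 8.16 and 9.70 FPKM under BBR and at 148.2, 98.5 and 158.8 FPKM under SASP (log2 difference -3.73, adjusted p = 0.0005). Cxcl10, a chemokine for T cells, had a difference of -3.65 (adjusted p = 0.0007), and Ubd, a ubiquitin-like modifier, one of -4.05 (adjusted p = 0.022), a call lost when any mouse other than BBR mouse 3 or SASP mouse 2 was left out. Antiviral genes, which respond mainly to type I and III interferons, passed as lower for 16 of 18, with a median of -2.17. Ifit2, which binds viral RNA, had a difference of -4.04 (adjusted p = 0.0035), Isg15, a ubiquitin-like modifier, one of -3.35 (adjusted p = 0.0089) and Ifit3 one of -2.56 (adjusted p = 0.0051). Both counts depended on single mice: those for the genes with no close paralog were 9 without SASP mouse 1 and 8 without SASP mouse 3, and those for the antiviral genes 8 without BBR mouse 1, 8 without SASP mouse 1 and 7 without SASP mouse 3.

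The conjugation machinery of autophagy places IRG proteins on vacuoles and off the cell's own membranes, and 0 of its 11 tested genes passed as lower and 3 as higher under BBR. Gabarapl1 was at 42.92, 58.95 and 38.29 FPKM under BBR and 24.6, 25.4 and 20.9 FPKM under SASP (log2 difference 0.93, adjusted p = 0.0266). Map1lc3a had a difference of 0.79 (adjusted p = 0.0267) and Map1lc3b, named after its value was seen, one of 0.62 (adjusted p = 0.0446). All 3 encode proteins that are coupled to membrane lipid. Single mice decided these calls, which numbered 0 without BBR mouse 1, SASP mouse 1 or SASP mouse 3, 1 without BBR mouse 2 or SASP mouse 2 and 5 without BBR mouse 3. Of 9 tested ubiquitin ligases and adaptors that act at coated vacuoles, 2 passed as lower and 0 as higher: Trim21 (-1.10, adjusted p = 0.0185) and Tax1bp1 (-0.68, adjusted p = 0.0205). Neither of the 2 passed without SASP mouse 1 or without SASP mouse 3, Tax1bp1 also missed the threshold without BBR mouse 1 or BBR mouse 2, and Calcoco1 had a difference of 0.78 with an adjusted p of 0.0806. Without BBR mouse 3, 2 genes of this list passed as higher, among them Calcoco1 (1.03, adjusted p = 0.0057), which also passed with quantile normalization (adjusted p = 0.0459) and array quality weights (adjusted p = 0.0003).

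**Figure D5:**
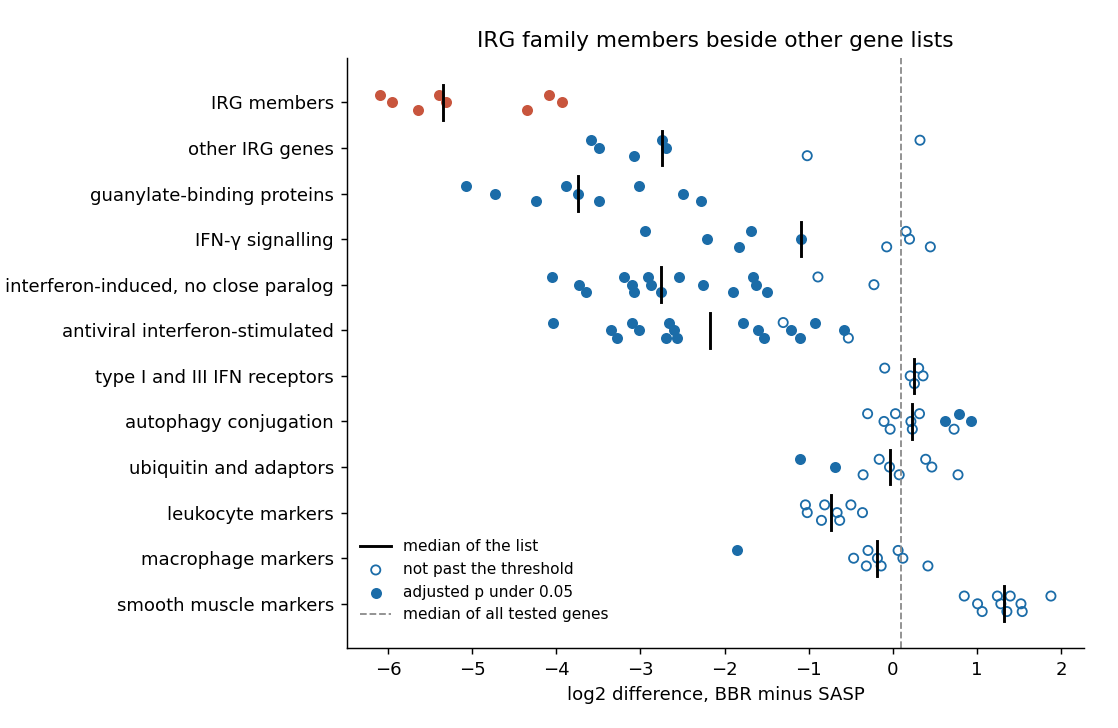
Log2 difference, BBR minus SASP, of each tested gene in 12 gene lists, with filled points for an adjusted p under 0.05, open points otherwise, a black bar at each list's median and a dashed line at the median of all tested genes. The 8 IRG family genes (red) were chosen on this difference. Medians lie at -5.35 for them, -3.75 for guanylate-binding proteins, -2.75 for other IRG genes and 0.26 for type I and III interferon receptors.

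Median differences were smaller in markers of cell types that could carry IRG transcripts. All 8 leukocyte markers were lower under BBR, 0 at an adjusted p under 0.05 in limma and 6 at an unadjusted p under 0.05, with a median log2 difference of -0.74 and a summed level of 24.6 to 41.1 FPKM under BBR and 39.8 to 87.5 FPKM under SASP. Their defining gene Ptprc, named after its values were seen, was at 1.84 to 3.32 FPKM under BBR and 2.67 to 6.80 FPKM under SASP. Of 9 tested macrophage markers, 1 passed as lower, Cd14 (log2 difference -1.85, adjusted p = 0.0089), and the median was -0.18, with a summed level of 142 to 191 FPKM under BBR and 258 to 281 FPKM under SASP. Only 3 of 14 T and natural killer cell markers were high enough to be tested, 0 of them passed at an adjusted or an unadjusted p under 0.05, and their sum was 6.07 to 10.2 FPKM under BBR and 5.80 to 15.6 FPKM under SASP. Neutrophil markers gave 1 lower call of 5 tested, S100a8, and B and plasma cell markers 1 of 4, Cd79b. Epithelial markers were abundant in every mouse, at a sum of 9458 to 11845 FPKM, with 2 of 12 higher and 1 lower. All 10 smooth muscle markers were higher under BBR, 0 at an adjusted p under 0.05 and 8 at an unadjusted p under 0.05, with a median of 1.32 and sums of 3183 to 7414 FPKM against 863 to 2622 FPKM. Of 9 stromal markers 4 passed as higher, and of 5 endothelial markers 1 did. The part of these shifts in the IRG levels was not tested.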

How the data were processed

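The labels name an Illumina library kit for total RNA, whereas the methods of the study describe removal of ribosomal RNA and sequencing of DNA nanoballs as single 50-base reads. The submitters' processing notes name Bowtie2 2.2.5, RSEM 1.2.12 and the build mm9, and the authors deposited one table of FPKM per gene and mouse, rounded to 2 decimals. RSEM shares reads among similar genes, so values of near-identical copies are uncertain. The table holds no coordinates. Promoter coordinates are those of RefSeq on GRCm38.p6, a later build.

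Because FPKM are no counts, log2(FPKM + 1) was fitted instead of a count model. Two-sided moderated tests with a trend of variance on level were run in limma 3.58.1 under R 4.3.3 for the 12072 genes with at least 1 FPKM in at least 3 of 6 mice. P-values were adjusted by the Benjamini-Hochberg method over all of them, with a threshold of 0.05. The code was tested on simulated data. P-values measure the spread between mice only. Shared stretches of 50 bases were counted in GENCODE M21 transcripts, and Gm12250 was left out because it is modelled there as a pseudogene. Estimated reads rest on 33 to 51 genes a mouse.

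The 8 genes and all gene lists were chosen with earlier results of these data known. Named genes were all IRG genes, all tested interferon gamma signalling genes, from each other list the 2 with the largest difference and the 2 with the smallest p, and the 10 genes nearest in profile. Alternatives were another pseudocount, other filters, quantile and median-ratio scaling, no trend, array weights and each mouse left out. Protein sequences were not analysed here, and 1 gene of the signalling list is not reported here.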

Additional observations from a re-analysis of the deposited data

How the results depend on the processing

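The 8 IRG genes were chosen on this difference, so that all stayed lower in each of the 13 alternatives is no sign of stability. Their median log2 difference ranged from -5.82 with a pseudocount of 0.1 to -5.17 without SASP mouse 3. The count of all genes called moved from 1069 to 1713 with median-ratio scaling, 1737 with quantile normalization, 7126 with array quality weights, 608 with no filter on low values and 3837 at an unadjusted p of at most 0.05. With 1 mouse left out it ranged from 96 (without SASP mouse 3) to 4051 (without BBR mouse 3). It was 133 without BBR mouse 1, 376 without BBR mouse 2, 127 without SASP mouse 1 and 522 without SASP mouse 2. Of the genes called, 43.1% were higher under BBR, but 66.2% without BBR mouse 3 and 65.1% with array weights. Over the 9 pathway lists 52 of 86 tested genes were called lower, and 30 to 55 with 1 mouse left out. Of 492 comparisons of the other named genes, 441 kept their direction and side of the threshold, 32 lost a call, 18 gained one and 1 reversed, Ifngr1, at 0.025 with quantile normalization (-0.07 in the reported fit and -0.17 to -0.01 in the other alternatives). The cause was not tested. No paired analysis was possible because the labels give BBR and SASP mice no common replicate numbers, and the numbers used here follow accession order. Levels of Tgtp1 and Gm12250 under BBR rest on few reads.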

Other observations

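The motifs seen upstream of the IRG genes were also counted in the other lists, over the genes with a RefSeq promoter window, as a description. The GAAA repeat (GAAA, any 2 bases, GAAA) was present in 5 of 5 guanylate-binding protein genes, 10 of 15 antiviral genes and 2 of 5 other IRG genes. It was present in 1 of 10 other interferon-induced genes without a close paralog and in 0 of 8 autophagy conjugation genes, against 3.44% of all windows. The close pair with TTCNNNGAA, within 12 bases, was present in 0 of 5 guanylate-binding protein genes, 1 of 15 antiviral genes and 1 of 5 other IRG genes. Of 21 genes with that close pair in a window, 5 were among the 8 IRG genes and 16 were not. Among these 16, 6 were tested between BBR and SASP, 2 were called lower and 0 higher, and the 6 are named here after their values were seen. Gm12185 was at 0.08 to 0.25 FPKM under BBR and 5.49 to 7.44 FPKM under SASP (log2 difference -2.75). Bst2, which tethers enveloped viruses to the cell surface, was at 12.6, 9.15 and 7.85 FPKM under BBR and 51.9, 21.1 and 41.0 FPKM under SASP (log2 difference -1.77, adjusted p = 0.0266). Ifitm3, Etv6, Irf2 and Cxcl14 did not pass, with log2 differences of -0.85, -0.42, 0.23 and 0.43.

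Genes that promote interferon gamma production were mostly too low to test, since 1 of 12 reached the minimum. Il18, a cytokine of epithelium, was at 226.2, 173.7 and 286.0 FPKM under BBR and 131.5, 230.5 and 131.7 FPKM under SASP, with overlapping groups and an adjusted p of 0.249. SASP mouse 2, which had the lowest IRG levels of its group, had the highest Il18 value of the 3.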
